A study of Mus musculus with 119 samples.

Results

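RNA sequencing of bone marrow-derived macrophages (BMDMs, macrophages grown from mouse marrow) was used to set a ribosomal S6 kinase (RSK) inhibitor beside a MEK inhibitor during an LPS response. The comparison covered 10 libraries of the series: 4 libraries from cells given RSKi47 at 2 µM, and 6 from cells given PD0325901 at 0.1 µM. Both groups were C57BL/6 wild-type cells given inhibitor for 10 min, then LPS at 100 ng/ml for 1 h with the inhibitor still present. Libraries were assigned to these groups by their labels alone, and any deposited value above 25 was treated as missing. This removed 1 value, that of Fosb in RSKi47 replicate 1. Further groups were used for reference: 4 RSKi47 and 3 PD0325901 libraries after 10 min of inhibitor without LPS, 3 PD0325901 libraries after 70 min of inhibitor without LPS, 3 RSKi47 and 6 PD0325901 libraries after 0.5 h of LPS, and 6 uninhibited wild-type and 6 Map3k8 D270A libraries after 1 h of LPS. Uninhibited wild-type cells were also used without LPS (6 libraries) and after 0.5 h (6) and 2 h (4) of LPS, and RSKi47 cells after 2 h (4). Map3k8 D270A cells carry a kinase-dead form of TPL-2 (MAP3K8). No vehicle control with LPS was analysed here. The PD0325901 experiment also holds 3 libraries given DMSO for 10 min without LPS, which entered none of the comparisons.

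LPS binds TLR4 on macrophages and releases TPL-2, which phosphorylates the MAPK kinases MKK1 and MKK2, and these activate the MAPKs ERK1/2. PD0325901 blocks MKK1 and MKK2 and with them all activation of ERK1/2 by this route. RSKs are kinases that ERK1/2 activate, so an RSK inhibitor acts on the branch below RSK, whereas ERK1/2 can still phosphorylate other substrates, among them the ternary complex factors (TCFs) that act with SRF on immediate early genes. Setting RSKi47 against PD0325901 asks which LPS-response transcripts separate the RSK branch from the other outputs of ERK1/2. A positive difference below means that RSKi47 cells held more of the transcript than PD0325901 cells. All levels are the deposited normalized values, read as log2 although the base was not stated. A gene was called when its Benjamini-Hochberg adjusted p in limma was below 0.05 and its log2 difference was at least 1 in size (2-fold), over 11971 genes tested. Errors are SE for differences and SD for levels.

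Inhibitor and experiment coincided: the PD0325901 libraries came from a single experiment and the RSKi47 libraries from another, so the effect of the drug and the effect of the experiment cannot be told apart from the LPS 1 h libraries alone. The uninhibited wild-type libraries belong to another experiment and are given for orientation. The macrophage label held in both groups: 11 of 12 macrophage genes passed the filter, and their summed log2 level was 18.98 to 19.03 in RSKi47 and 18.85 to 18.97 in PD0325901 libraries. None of 6 red cell genes and 1 of 10 lymphocyte genes passed. Among stromal genes 4 of 8 passed, and their summed level was 5.92 to 7.79 in RSKi47 libraries against 5.06 to 5.72 in PD0325901 libraries. Dendritic cell genes summed to 12.05 to 12.45 against 11.44 to 11.97, a sum set by Itgax: of the 4 of 8 that passed, 1 was higher and 0 lower at an adjusted p below 0.05, and the median difference was -0.14. The lymphocyte list summed to 5.56 to 5.79 against 6.31 to 6.63. After 10 min without LPS, the median stromal sum was 6.66 with RSKi47, 5.16 with PD0325901 and 5.12 with DMSO. For dendritic cell genes the medians were 12.20, 11.44 and 11.43, and for the lymphocyte list 5.70, 6.62 and 6.53. The part of these cell types in the differences below was not tested. In bulk RNA, fewer cells of a type and less RNA per cell cannot be told apart. Libraries differed by a root mean square of 0.12 to 0.16 log2 units within PD0325901 and 0.16 to 0.26 within RSKi47, where replicate 4 stood apart (0.24 to 0.26 from the other 3, which were 0.16 to 0.19 from each other). The transcripts of the kinases of this pathway that are named here differed by less than the threshold. The difference for Mapk3, which encodes ERK1, was -0.07 ± 0.04. Those for Map2k1 and Map2k2, which encode MKK1 and MKK2, were -0.22 ± 0.04 and -0.02 ± 0.05. Rps6ka1, Rps6ka2 and Rps6ka3, the RSK genes measured here, differed by 0.02 ± 0.03, 0.08 ± 0.08 and -0.10 ± 0.07.

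At LPS 1 h, 117 genes were higher and 60 lower in RSKi47 than in PD0325901 cells (0.977% and 0.501% of genes tested, 1.48% in all). Smaller shifts were widespread: at an adjusted p below 0.05 alone, 28.6% of genes were higher and 25.3% lower, and the libraries of the groups did not overlap for 45.2%. The median difference over all genes was 0.01. Most of the called genes already differed before LPS. Without LPS 112 genes were called higher and 39 lower (0.936% and 0.326%, 1.26% in all), and 84 of the 117 and 30 of the 60 genes called at 1 h were among them in the same direction. For those 114 genes the difference changed by a median of 0.14 log2 units between no LPS and LPS 1 h. They were selected for a call at both times, which by itself favours a small change, and the other genes called at 1 h are not in this median. At LPS 0.5 h, 1.32% of genes were called. To take out what was present before LPS, the LPS 1 h response (LPS 1 h minus 10 min of inhibitor alone) was compared between the arms. This difference of responses was called for 36 genes (0.301%), 16 higher in RSKi47 (0.134%) and 20 lower (0.167%). With PD0325901 for 70 min as the baseline, it was called for 67 genes, 44 higher and 23 lower, 21 of them among the 36. Of the 16 higher calls with the 10 min baseline, 9 were genes that LPS raised in uninhibited wild-type cells, and of the 20 lower calls, 17 were. LPS raised 3.17% of all genes tested. The 36 were selected by a difference in LPS response, so these counts follow in part from the selection.

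**Figure D1:**
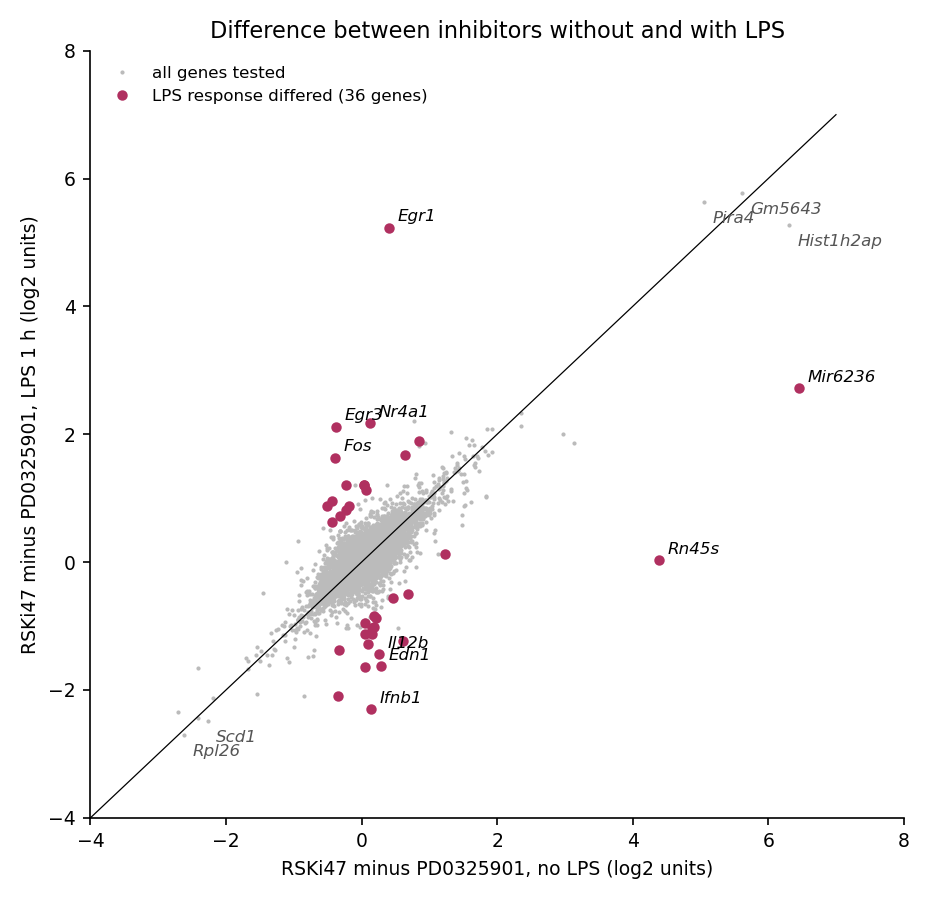
RSKi47 minus PD0325901 difference of each gene tested (log2 units) without LPS on the horizontal axis and at LPS 1 h on the vertical axis. The line marks equal differences, and dark points are the 36 genes whose LPS response was called different. Gm5643 and Scd1 lie near the line, whereas Egr1 (0.41 without LPS, 5.23 at 1 h) and Ifnb1 (0.15 and -2.30) lie away from it.

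Several immediate early genes were higher with RSKi47 at LPS 1 h. Of 14 listed TCF-SRF genes 12 were tested, 6 were called higher in RSKi47 and 0 lower, with a median difference of 0.89 at LPS 1 h and 0.08 without LPS (over all genes, 0.01 and -0.01, with 0.977% called higher and 0.501% lower at LPS 1 h). The 6 were Egr1, Egr3, Nr4a1, Fos, Fosb and Ier2, and the difference of responses was called for the same 6, although for Fos not with PD0325901 for 70 min as the baseline. Without RSKi47 replicate 4 the count was also 6.

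Egr1 encodes a zinc finger factor induced within minutes of ERK activation. Its levels in RSKi47 replicates 1 to 4 were 12.72, 12.33, 12.46 and 12.12, and in PD0325901 replicates 1 to 6 they were 7.08, 7.27, 7.01, 7.13, 7.36 and 7.18. The groups lay far apart, at 12.41 ± 0.25 (n = 4) against 7.17 ± 0.13 (n = 6). The difference was 5.23 ± 0.16 (adjusted p = 8.47e-50) after 0.41 ± 0.19 without LPS, and the difference of responses was 4.82 ± 0.25 (adjusted p = 6.50e-31). Uninhibited wild-type cells held 11.19 to 11.62, so RSKi47 cells were above them by 1.01 ± 0.16 and PD0325901 cells differed from them by -4.22 ± 0.14 on the log2 scale. At LPS 0.5 h Egr1 was already 4.61 ± 0.18 apart.

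Egr3, a relative of Egr1, stood at 9.79, 10.02, 10.07 and 9.05 in RSKi47 and 7.72, 7.53, 7.55, 7.71, 7.61 and 7.54 in PD0325901 libraries. RSKi47 replicate 4 was the lowest of its group but above every PD0325901 library. The difference was 2.12 ± 0.15 (adjusted p = 6.87e-23), the difference of responses 2.49 ± 0.23. Nr4a1, an orphan nuclear receptor gene, stood at 12.92, 10.68, 10.65 and 10.10 in RSKi47 and 8.72, 8.91, 8.91, 9.02, 8.93 and 8.97 in PD0325901 libraries. All RSKi47 libraries were higher, and replicate 1 lay more than 2 log2 units above the others. The difference was 2.18 ± 0.20 (adjusted p = 1.35e-16), and 1.56 without RSKi47 replicate 1. The SE and p rest on a spread shared by all libraries of the series. Over the settings tried, the adjusted p reached 0.0199. The difference of responses of Nr4a1 was 2.05 ± 0.31. Fitted to the 14 libraries of that comparison alone, it was not called (adjusted p = 0.0704 with the replicate block and 0.0953 without it).

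Fos and Fosb encode subunits of the AP-1 factor. Fos stood at 12.67, 11.50, 11.41 and 11.35 in RSKi47 and 10.03, 10.17, 10.06, 10.07, 10.25 and 10.02 in PD0325901 libraries. The groups did not overlap, and replicate 1 was again the highest. The difference was 1.64 ± 0.12 (adjusted p = 4.84e-22), or 1.32 without that replicate, after -0.39 without LPS and 0.53 at 0.5 h. Fosb, with replicate 1 missing, stood at 8.07, 8.15 and 7.28 in RSKi47 replicates 2 to 4 and at 6.58 to 6.69 in PD0325901 libraries. PD0325901 libraries at 1 h were near their level without LPS (6.55 ± 0.02, n = 3), and the difference was 1.20 ± 0.14 (adjusted p = 4.79e-12). Ier2, an immediate early gene of nuclear location, was 11.24 to 11.74 in RSKi47 and 10.10 to 10.31 in PD0325901 libraries, a difference of 1.20 ± 0.09. Junb, Egr2 and Arc of the same list were not called, at 0.59, 0.34 and 0.41.

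Set against uninhibited cells, which came from another experiment, these transcripts were lower in PD0325901 cells. PD0325901 minus wild-type was -2.42 for Egr3, -1.79 for Nr4a1, -1.44 for Fos, -1.83 for Fosb and -1.15 for Ier2, all called. RSKi47 minus wild-type was -0.29, 0.38, 0.20, -0.62 and 0.05 for the same genes, none called. Both sets of values share the wild-type libraries.

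**Figure D2:**
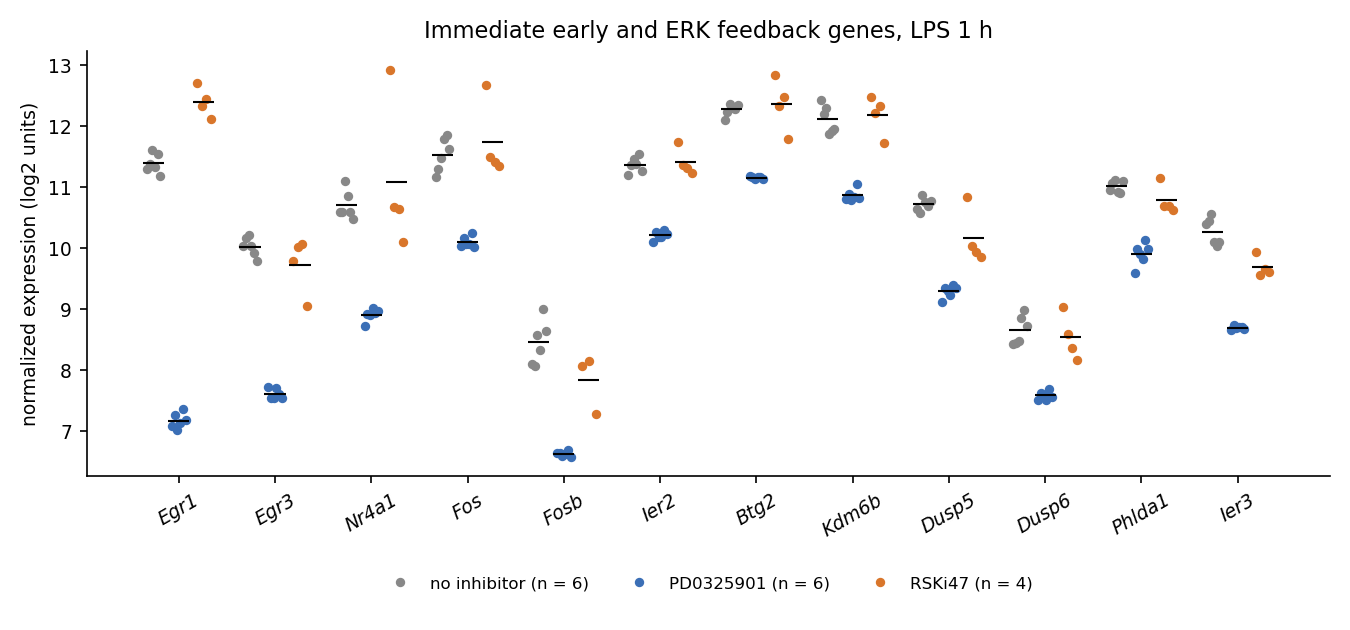
Level of 12 immediate early and ERK feedback genes in each LPS 1 h library (log2 units), for uninhibited wild-type, PD0325901 and RSKi47 cells, with black bars at group means. Fosb has 3 RSKi47 points because 1 value was treated as missing. Every RSKi47 library lies above every PD0325901 library for each gene shown.

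Upstream sequences are shown for early genes whose LPS response differed and for which a stretch was used, since TCF-SRF complexes bind CArG boxes and CREB, a factor that RSKs can phosphorylate, binds the cyclic AMP response element (CRE). Bases are from RefSeq promoters on GRCm38.p6, read 5′ to 3′ on the strand of the gene, with matches to the motif named for each stretch in capitals. The Dusp5 stretch, chr19:53529045-53529104 (plus strand), holds CArG boxes starting at -82 and -72 from the start site, and also TGACG on the opposite strand at -55, left in lower case. The Fos stretch, chr12:85473750-85473839 (plus), and the Fosb stretch, chr7:19310076-19310135 (minus), hold the CRE core TGACG. The Nr4a1 stretch, chr15:101266756-101266815 (plus), holds that core on the opposite strand, read here as CGTCA. The Btg2 stretch, chr1:134079286-134079345 (minus), holds the full CRE, TGACGTCA.
Dusp5: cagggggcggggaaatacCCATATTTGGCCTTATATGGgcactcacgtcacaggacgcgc
Fos: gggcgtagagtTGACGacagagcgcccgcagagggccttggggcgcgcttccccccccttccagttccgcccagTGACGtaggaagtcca
Fosb: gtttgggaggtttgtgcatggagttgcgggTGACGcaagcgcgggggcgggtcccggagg
Nr4a1: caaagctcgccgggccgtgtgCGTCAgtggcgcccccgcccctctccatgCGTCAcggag
Btg2: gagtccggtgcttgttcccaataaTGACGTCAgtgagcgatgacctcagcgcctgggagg
In the 250 bases before the start, on both strands, TGACG (which also lies within the full CRE) occurred in 17.8%, TGACGTCA in 1.55% and a CArG box in 1.47% of 32851 promoters. Among the 16 genes with a higher response in RSKi47, 8 had a promoter that was used, of which 5 held TGACG and 1 a CArG box. Egr1 was not among the 8. Some promoters were left out of the gene sets but kept among the 32851, and sites further upstream than 250 bases were not counted. Among the 23 TPL-2-dependent genes (defined below) that were not called at 1 h, 16 had one, of which 8 held TGACG and 1 a CArG box. Dusp5 is in both sets and is the CArG box gene of each. Among the 20 genes with a lower response 15 had one, of which 4 held TGACG and 0 a CArG box. The full CRE was held by 1 of the 8, 2 of the 16 and 1 of the 15 promoters used. These matches are descriptions of the letters only.

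Of 14 tested ERK output and feedback genes, used as readouts of ERK activity, 0 were called at LPS 1 h (2 without RSKi47 replicate 4), although 9 were higher and 2 lower at an adjusted p below 0.05 alone (28.6% and 25.3% of all genes), with a median of 0.43 (0.02 without LPS). Dusp6, a phosphatase specific for ERK1/2, stood at 9.03, 8.59, 8.37 and 8.17 in RSKi47 and 7.50 to 7.69 in PD0325901 libraries. The groups did not overlap, and the difference was 0.95 ± 0.10. Ier3 differed by 1.00 ± 0.11, just under the threshold, Dusp5, a nuclear ERK phosphatase gene, by 0.87 ± 0.16, Phlda1 by 0.88 ± 0.14, and Spry2, a Sprouty inhibitor of receptor signalling, by 0.72 ± 0.08. RSKi47 replicate 1 was the highest library of its group for Dusp5, Phlda1 and Spry2, and without it the Dusp5 difference was 0.65.

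The difference of responses was called for Dusp6 (1.39 ± 0.15), Phlda1 (1.39 ± 0.21), Dusp5 (1.05 ± 0.25) and Spry2 (1.04 ± 0.13), but for these genes it rested on the baseline. In PD0325901 cells without LPS, Dusp6 was 9.69 ± 0.05 after 10 min of inhibitor and 7.61 ± 0.17 after 70 min (n = 3 each). With the 70 min baseline, which matches the total inhibitor time of the LPS 1 h cells but has no RSKi47 counterpart here, the difference of responses was -0.69 for Dusp6, 0.34 for Phlda1, 0.82 for Dusp5 and 0.12 for Spry2. Fos behaved likewise (2.02 with 10 min, 0.40 with 70 min, after a level of 9.12 ± 0.05 at 70 min). Egr1, Egr3, Nr4a1, Fosb, Ier2 and Btg2 were called with either baseline, at 3.92, 1.63, 1.85, 1.16, 1.43 and 1.27 with 70 min. Jun (1.04) also lost its call, at 0.39. In all, 8 of the 16 higher and 12 of the 20 lower calls held with the 70 min baseline.

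CREB target genes overlapped with the early genes. Of 18 tested, 4 were called higher and 0 lower (6 and 0 without RSKi47 replicate 4), with a median of 0.54. The shares over all genes, 0.977% higher and 0.501% lower, apply to each list here. The 4 called CREB targets were Nr4a1, Fos, Fosb and Btg2. Btg2, an antiproliferative gene, stood at 12.84, 12.34, 12.49 and 11.79 in RSKi47 and 11.13 to 11.18 in PD0325901 libraries. The groups did not overlap, and the Btg2 difference was 1.21 ± 0.08. Per1, a clock gene, differed by 0.91 and Nr4a3 by 0.99, neither called, and Atf3 by -0.77. Nr4a3 was at 0.55 without RSKi47 replicate 1 and was called without replicate 4, at 1.20. AP-1 and Maf genes gave 2 called of 13, Fos and Fosb. Jun differed by 0.81 ± 0.08 and Fosl2 by 0.72 ± 0.12 (0.45 without RSKi47 replicate 1). The FOXO target Fbxo32, a ubiquitin ligase gene, was higher by 1.89 ± 0.10 (0.84 without LPS), 1 of 18 FOXO targets tested that was called, and Zfp36l2, an mRNA-decay factor gene, by 1.12 ± 0.07 (0.07 without LPS).

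TPL-2-dependent genes were defined without inhibitor libraries, as the 29 genes called lower in Map3k8 D270A than in wild-type cells at LPS 1 h (0.242% of genes tested). Of these, 6 were called higher in RSKi47 than PD0325901 cells and 0 lower, against 0.977% and 0.501% of all genes, and the median difference was 0.28. The 6 were Egr1, Nr4a1, Egr3, Fos, Fosb and Kdm6b, a histone demethylase gene that differed by 1.32 ± 0.14 but already by 0.79 without LPS. The counts ran from 5 to 8 when single libraries were left out. At an adjusted p below 0.05 alone, 14 were higher and 2 lower, and 13 did not pass.

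Placed against uninhibited wild-type cells, 22 of the 29 were called lower with PD0325901 and 12 with RSKi47, 11 of them with both, where 0.409% and 0.576% of all genes were called lower (0.326% and 0.977% higher). The 29 were selected with the same wild-type libraries, so these counts are not independent of the selection. Those called lower with PD0325901 and not with RSKi47 were Egr1, Nr4a1, Egr3, Fos, Fosb, Ier3, Dusp5, Kdm6b, Phlda1, Il1a and Gpr84. Those called lower with both were Csf2, Il1b, Il23a, Errfi1, Mex3b, Fosl1, Il1bos, Lif, Adamts4, Lrrc17 and Tnfsf4. A call against wild-type with a single inhibitor is not a test between them, and the direct differences follow.

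Several cytokine genes of this set stood at nearly the same level with either inhibitor. Csf2, which encodes GM-CSF, was 6.35, 6.23, 6.32 and 6.25 in RSKi47 and 6.42 to 6.47 in PD0325901 libraries, against 8.03 to 9.31 in uninhibited cells. Both inhibited groups lay below every uninhibited library, and every RSKi47 library lay slightly below every PD0325901 library. The difference between the inhibited groups was -0.17 ± 0.18 (95% confidence interval -0.52 to 0.19). Il23a, the p19 subunit of IL-23, was 6.27, 6.31, 6.22 and 6.88 and 6.09 to 6.48, with a difference of 0.12 ± 0.18 (-0.24 to 0.49). Il1b was 14.51, 13.66, 13.71 and 13.51 and 13.86 to 14.08, with replicate 1 the only RSKi47 library above the PD0325901 libraries, and its difference was -0.16 ± 0.15 (-0.46 to 0.15). Mex3b, an RNA-binding protein gene, differed by 0.02 ± 0.14 (-0.26 to 0.29), Errfi1, a feedback inhibitor of EGF receptors, by 0.18 ± 0.15 (-0.13 to 0.49), Fosl1 by 0.16 ± 0.15 (-0.13 to 0.46) and Ptgs2, the gene of COX2, by 0.06 ± 0.18 (-0.30 to 0.42). These intervals leave out differences of 2-fold in either direction. Smaller differences are not excluded by them. Il1a (0.64 ± 0.17) and Lif (0.56 ± 0.14) lay between, higher in RSKi47 but not called, and Lif was at 0.37 without RSKi47 replicate 1.

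The uninhibited libraries themselves split by number. Csf2 averaged 9.22 in those numbered 4 to 6 and 8.17 in those numbered 7 to 9, and RSKi47 minus these was -2.93 and -1.88. For Il1b the same values were -1.47 and -0.90, and for Il23a -2.36 and -0.86. The direction was the same for all 3 genes, whereas the size was not. Against the libraries numbered 7 to 9, the values of Il1b and Il23a were under the 2-fold threshold. The counts called lower than wild-type above therefore depend on the uninhibited libraries used.

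**Figure D3:**
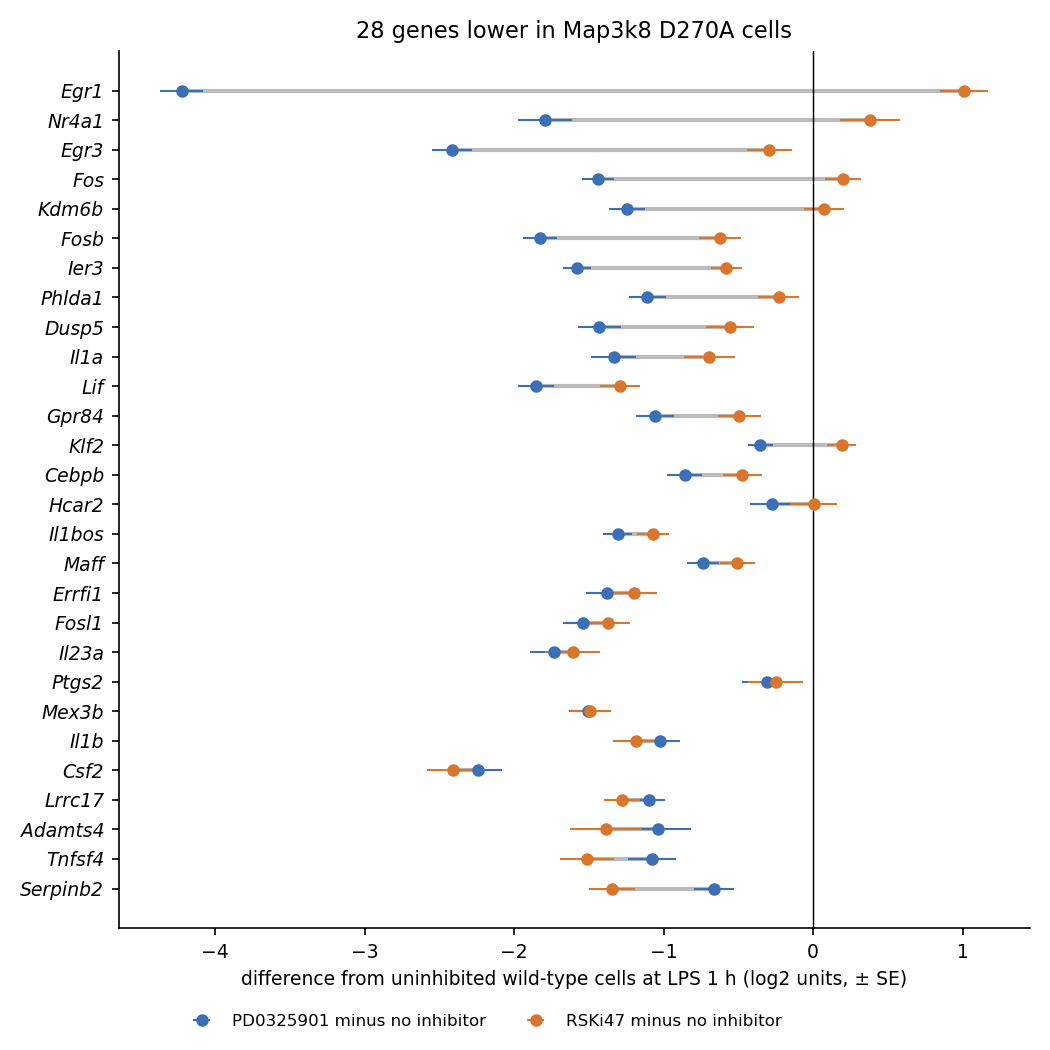
Difference from uninhibited wild-type cells at LPS 1 h (log2 units, error bars SE) with PD0325901 and with RSKi47 for 28 of the 29 TPL-2-dependent genes, ordered by the difference between inhibitors. Egr1, Nr4a1 and Fos sit near or above 0 with RSKi47 and below -1 with PD0325901, whereas Csf2, Mex3b and Il23a sit together below -1. Rn45s, a ribosomal RNA row that varied widely, is left out.

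In the other direction, some secreted mediators of the LPS response were lower with RSKi47. Of 28 tested cytokine and chemokine genes 6 were called lower and 1 higher (5 and 2 without RSKi47 replicate 4, with a median of -0.17), with a median of -0.30 at LPS 1 h and 0.13 without LPS. At an adjusted p alone, 11 were lower and 7 higher, against 25.3% and 28.6% of all genes. Those lower were Ifnb1, Ccl2, Ccl7, Il12b, Ccl4 and Csf1, and the gene that was higher was Clcf1, an IL-6 family cytokine (1.86 ± 0.18, and 0.94 without LPS). Among the 380 genes that LPS raised in wild-type cells (3.17% of genes tested), 14 were called higher and 18 lower (3.68% and 4.74%, against 0.977% and 0.501% of all genes). Of the same 380, 10 were called higher and 1 lower without LPS (2.63% and 0.263%, against 0.936% and 0.326% of all genes). At LPS 0.5 h, 18 were called higher and 2 lower (4.74% and 0.526%), against 116 and 42 of all 11971 genes.

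Ifnb1 encodes IFN-β. It stood at 8.92, 9.85, 10.03 and 8.31 in RSKi47 replicates 1 to 4 and at 12.80, 11.09, 11.08, 12.65, 10.82 and 11.01 in PD0325901 replicates 1 to 6. Every RSKi47 library was lower, and PD0325901 replicates 1 and 4 lay above the other 4. Whether PD0325901 libraries with numbers 3 apart, such as 1 and 4, come from a shared culture was not tested. The difference was -2.30 ± 0.28 (adjusted p = 1.35e-11), and the difference of responses -2.44 ± 0.43 (adjusted p = 2.10e-05), or -2.29 with the 70 min baseline. At LPS 0.5 h it was 0.35 ± 0.30 and not called. The means of both inhibited groups were above that of uninhibited cells (7.51 to 8.40), by 1.33 ± 0.28 with RSKi47 and 3.62 ± 0.25 with PD0325901, both called, although RSKi47 replicate 4 lay within the uninhibited range. The Ifnb1 promoter at chr4:88522875-88522934 (minus strand, GRCm38.p6) is shown because NF-κB binds there, with a match to the κB site in capitals, a motif held by 7.25% of promoters.
Ifnb1: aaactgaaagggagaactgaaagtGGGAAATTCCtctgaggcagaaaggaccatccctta
Ifna2, a second type I interferon gene, was low in all libraries and differed by -0.95 ± 0.17, not called. Of 26 interferon-stimulated genes 0 were called, and their median was -0.17 at LPS 1 h and -0.28 without LPS. Without RSKi47 replicate 4 the median at LPS 1 h turned to 0.03, and 1 was called higher. The member furthest from 0 was Cxcl10, a chemokine gene, at -0.98 ± 0.21.

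Il12b, the p40 subunit of IL-12 and IL-23, stood at 7.59, 8.99, 9.10 and 8.75 in RSKi47 and 9.69, 10.10 and 10.37 (lowest, median and highest) in PD0325901 libraries. The groups did not overlap. The difference was -1.44 ± 0.24 (adjusted p = 3.09e-07) and that of responses -1.71 ± 0.38. Against the uninhibited libraries numbered 4 to 6 and 7 to 9, RSKi47 differed by -2.28 and -0.30 and PD0325901 by -0.83 and 1.14, so the place of PD0325901 relative to wild-type turned with the libraries used.

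Edn1, the gene of the vasoconstrictor endothelin-1, stood at 6.56, 6.71, 6.84 and 6.50 in RSKi47 and 8.14 to 8.46 in PD0325901 libraries. The difference was -1.63 ± 0.13 (adjusted p = 3.28e-19) and that of responses -1.91 ± 0.21. Ednrb, an endothelin receptor gene, Nox1, an NADPH oxidase gene, and Mmp13, a collagenase gene, also had lower responses, with differences at LPS 1 h of -1.28 ± 0.14, -1.13 ± 0.10 and -1.02 ± 0.16. Of the 20 genes with a lower response 8 were called lower than wild-type and 2 higher with RSKi47, and 1 lower and 4 higher with PD0325901 (over all genes, 0.576% and 0.977%, and 0.409% and 0.326%). These genes, other than Ifnb1 and Il12b, were chosen for naming after their values were seen.

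The monocyte chemoattractants Ccl2 and Ccl7 were lower throughout. Ccl2 stood at 12.47, 12.85, 12.81 and 12.35 in RSKi47 and 14.11 to 14.28 in PD0325901 libraries, and uninhibited cells held 13.87 to 14.21. The difference was -1.57 ± 0.11 at LPS 1 h but -1.08 ± 0.13 without LPS, and that of responses was -0.49 ± 0.17, not called (called at -1.79 with the 70 min baseline). Ccl7 differed by -1.49 ± 0.13 at LPS 1 h and -0.79 without LPS. Csf1, the gene of the macrophage growth factor M-CSF, differed by -1.04 ± 0.10 at LPS 1 h and -0.20 without LPS, and by -0.95 without RSKi47 replicate 4, which ended its call. Ccl4 differed by -1.09 ± 0.10, and by -0.94 without RSKi47 replicate 1, which also ended its call. Il10, whose difference was -0.39 ± 0.22, was called lower at -1.09 once RSKi47 replicate 1 was left out. Of 16 feedback genes of NF-κB 0 were called, 4 were lower and 1 higher at an adjusted p alone (25.3% and 28.6% of all genes), and the median was -0.07.

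**Figure D4:**
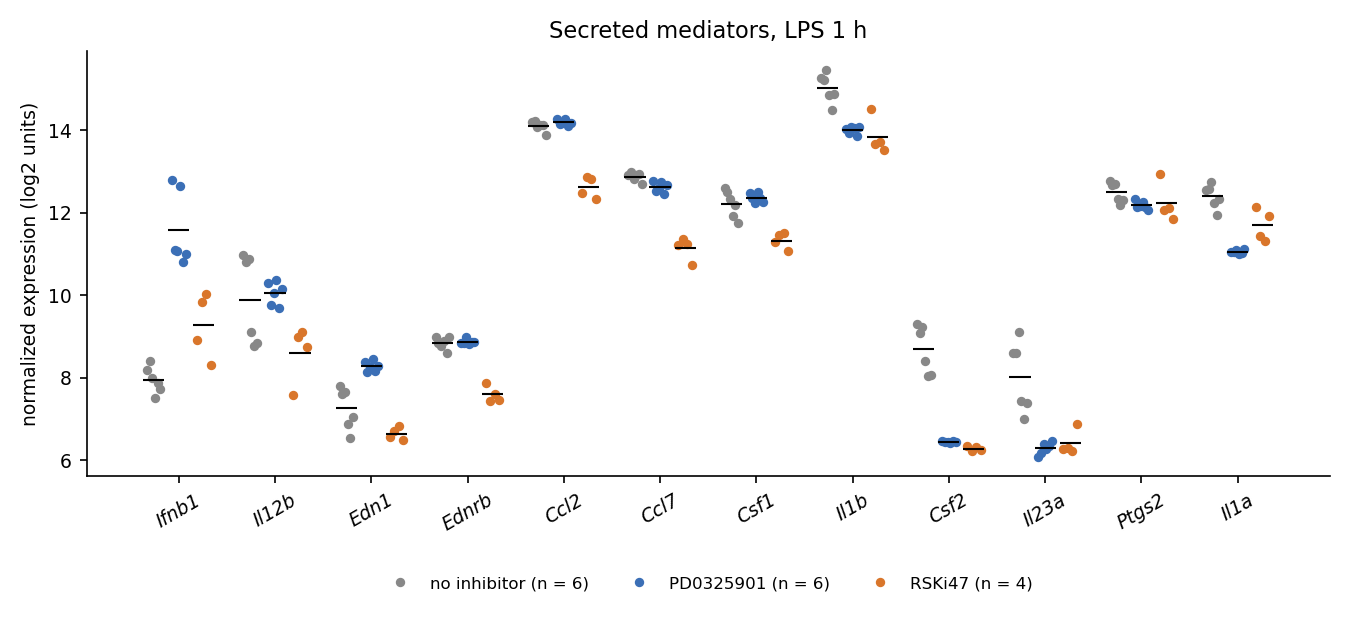
Level of 12 genes of the LPS response, most of them secreted mediators, in each LPS 1 h library (log2 units), with black bars at group means. Ifnb1 through Csf1 are lower in every RSKi47 library than in every PD0325901 library, whereas Csf2, Il1b and Il23a sit together below the uninhibited mean.

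**Figure D5:**
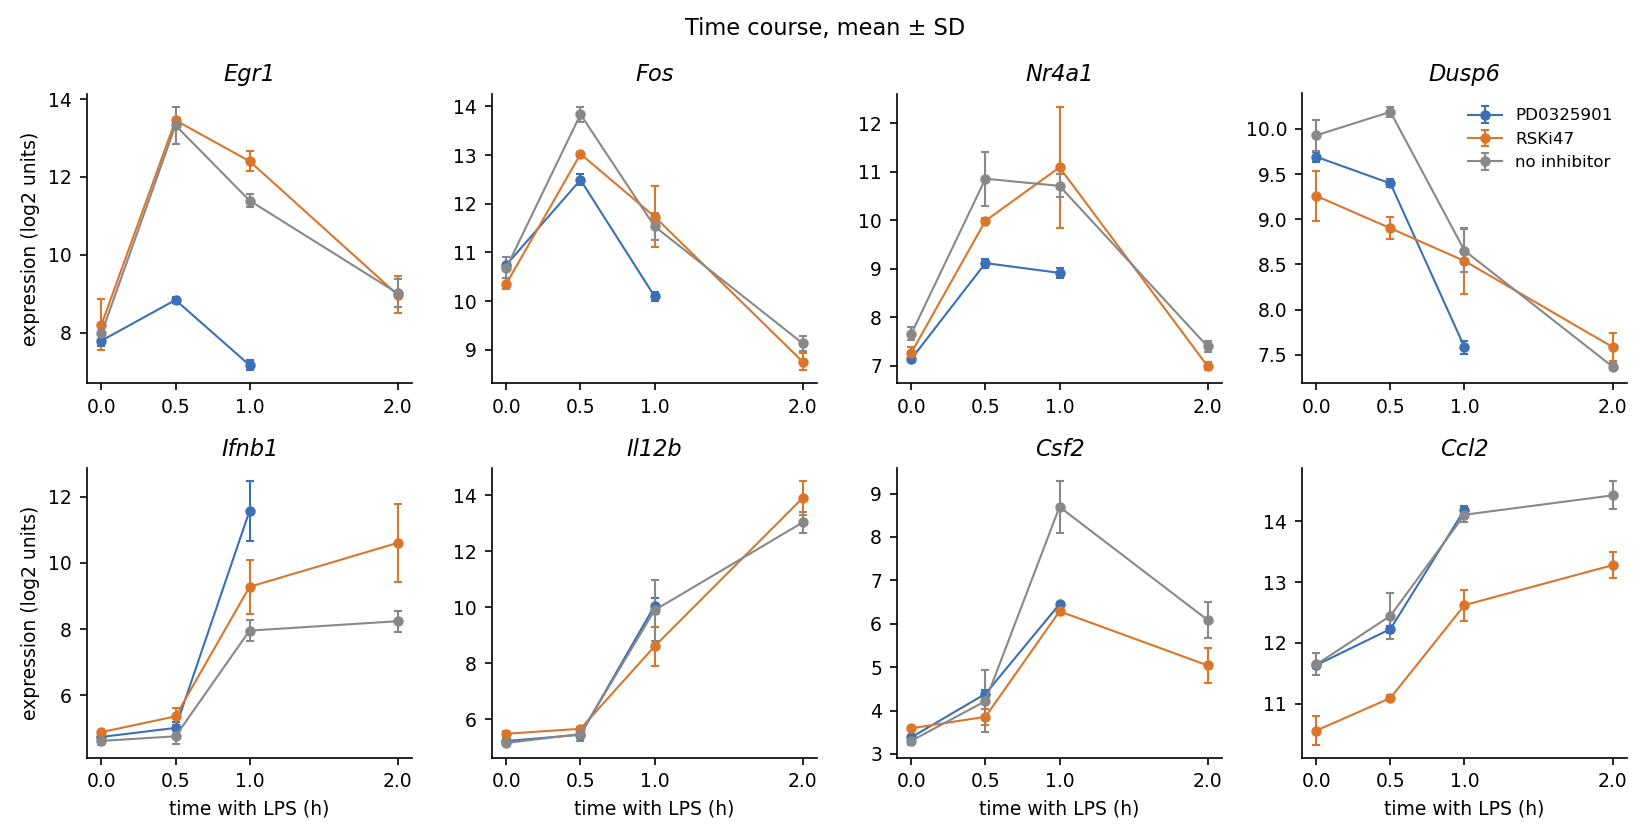
Mean level (log2 units, error bars SD) of 8 genes against hours with LPS for PD0325901, RSKi47 and uninhibited cells; time 0 is 10 min of inhibitor without LPS, or untreated cells. PD0325901 has no 2 h point. Egr1 was 13.45 ± 0.07 with RSKi47 (n = 3) and 8.84 ± 0.09 with PD0325901 (n = 6) at 0.5 h, whereas Ifnb1 was called different at 1 h and not at 0 or 0.5 h.

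Genes of lipid synthesis differed by similar amounts with and without LPS. All 16 tested genes of cholesterol and fatty acid synthesis were lower in RSKi47 cells at an adjusted p below 0.05 (25.3% of all genes), and 7 were called (0.501%), with a median of -0.99 at LPS 1 h and -1.05 without LPS. Without RSKi47 replicate 4, 14 were lower at that adjusted p and 7 were called. Scd1, a fatty acid desaturase, stood at 9.97, 9.03, 9.55 and 8.28 in RSKi47 and 11.50 to 11.81 in PD0325901 libraries, a difference of -2.49 ± 0.22. Fdps, Idi1, Scd2, Cyp51, Fdft1 and Hmgcs1 differed by -1.67, -1.46, -1.39, -1.23, -1.15 and -1.11. Hmgcs1 is the entry enzyme of the mevalonate pathway. Against wild-type, these 7 ran from -0.94 (Scd1) to 0.01 (Hmgcs1) with RSKi47 and from 0.94 (Scd2) to 1.54 (Scd1) with PD0325901. The difference of responses was called for 0 of the 16. The Hmgcs1 stretch at chr13:119690191-119690250 (plus strand, GRCm38.p6) is shown with its sterol regulatory element, TCACNCCAC, in capitals, a motif held by 1.05% of promoters. It also holds TGACG on the opposite strand at -147, in lower case.
Hmgcs1: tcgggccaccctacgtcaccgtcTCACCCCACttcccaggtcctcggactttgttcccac

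Genes with near-identical copies supplied several of the largest values. Gm5643 was higher by 5.78 ± 0.35 (5.61 without LPS), and Hist1h2ap, a histone gene, by 5.27 (6.31). Pira4 was higher by 5.64 whereas its relatives Pira7 and Pira11 were lower, at -2.44 and -2.06. Rpl26, Ndufs5, Atp6v0c and Akr1b3 were lower, at -2.71, -2.34, -2.12 and -1.65, and their values without LPS were -2.62, -2.71, -2.19 and -2.42. Counts split among copies are uncertain. H2-Q6, a class I MHC gene with close relatives, was higher by 2.21 (0.78 without LPS). Mgll, Itgal and Adam19, which encode a lipase, an integrin chain and a protease, were higher by 2.33, 2.09 and 2.08, with 2.36, 1.85 and 1.92 without LPS. For Adam19 and H2-Q6 the uninhibited libraries numbered 4 to 6 and 7 to 9 differed by 2.01 and 2.40. RSKi47 minus the former was -0.07 and -0.03, and PD0325901 minus the latter was -0.14 and 0.15. The collagen genes Col1a1 and Col1a2 and the matrix gene Sparc, markers of stromal cells, were higher by 1.86, 2.13 and 1.50 at low levels (means of 4.30 ± 0.46 and 2.44 ± 0.26 for Col1a1), and their part in other differences was not tested.

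Rn45s, a ribosomal RNA precursor, varied widely between libraries. It ran from 14.23 to 18.06 in PD0325901 and 15.40 to 15.78 in RSKi47 libraries at LPS 1 h, with a difference of 0.03 ± 0.75, but differed by 4.39 ± 0.89 without LPS. Mir6236 differed by 2.72 at LPS 1 h and 6.45 without LPS. Lars2, a mitochondrial leucyl-tRNA synthetase gene, differed by -2.09 and -0.35. Ribosomal protein genes had a median difference of -0.24. Of 22 tested, 21 passed the adjusted p of 0.05 as lower (25.3% of all genes) and 0 were called. Cell cycle genes had a median of -0.42 with and without LPS.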

How the data were processed

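Per the labels and the study's methods, the authors prepared TruSeq libraries, aligned reads to mouse build mm10 with STAR, counted RefSeq genes with RSEM and used DESeq2. The submitters' processing notes give versions 2.5.1b, 1.2.29 and 1.10.1, and the methods name other versions of STAR and RSEM. The deposited table holds 18098 genes as normalized values on a log2 scale, whose transformation was not stated. The base was not stated either: values were read as log2, and a threshold of the natural log of 2 was tried for natural logs. The methods state a typical yield, but the table holds no counts and the depth of each library is unknown, so no counting interval was given, and a pseudocount was not needed. The highest value kept was 19.8.

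From these values, limma (3.58.1) in R (4.3.3) fitted group means over all libraries, for genes whose back-transformed value reached 10 in 3 or more libraries. Named genes were the 10 highest and 10 lowest calls with libraries that did not overlap and a mean of at least 6 in the higher group, a panel of 35 study genes, up to 4 members per list and the kinase genes. Further genes are named for their difference of responses, their place among TPL-2-dependent genes or a list. The comparison, the gene lists and the tests were chosen with earlier results of these data known. The study describes its libraries as biological replicates. The labels do not say whether they are separate cultures or animals, so p-values measure the spread between libraries. That spread was estimated over all groups of the series, so SE and p-values do not measure the spread of the 10 compared libraries alone. Over the settings tried, the limma adjusted p at LPS 1 h rose as far as 4.43e-04 for Egr1, 0.0199 for Nr4a1 and 0.0228 for Ifnb1. Replicate numbers did not pair RSKi47 with PD0325901 libraries at LPS 1 h: the correlations of deviations for numbers 1 to 4 were 0.00, -0.08, -0.03 and -0.15. Within the RSKi47 arm, LPS 1 h and no-LPS libraries of a number deviated together (0.37, 0.26, 0.30 and 0.70), so a block within each arm was run as an alternative. The procedure was tested on simulated data. Some genes the rule names are not reported here. Sequences and positions are from RefSeq on GRCm38.p6, the assembly of mm10.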

Additional observations from a re-analysis of the deposited data

Results flagged for a closer look

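For genes named in the text, libraries of each LPS 1 h group were examined for a value far from the rest of its group. Of 178 groups of values, 19 held one, where chance gives about 1 in 20. In RSKi47 cells, replicate 1 stood above the others for Fos (12.67), Dusp5 (10.84), Phlda1 (11.14), Nr4a3 (8.13) and Pira7 (6.36). Replicate 4 stood apart for Il23a (6.88), Mmp13 (10.52), Rps6ka3 (11.98), Slc7a11 (10.08) and Gsr (10.18). Replicate 2 stood apart for Ndufs5 (6.66), Akr1b3 (8.36) and Mir6236 (4.80). In PD0325901 cells, replicate 1 stood apart for Gm5643 (4.18) and Nr4a1 (8.72), replicate 3 for Ednrb (8.98), replicate 4 for Col1a1 (2.95) and Col1a2 (3.93), and replicate 5 for Kdm6b (11.05). All these are log2 levels, and the cause was not tested.

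The LPS 1 h response differed between the inhibitor arms by the test of the difference itself for 24 named genes. It was higher with RSKi47 for Egr1 (4.82), Egr3 (2.49), Nr4a1 (2.05), Fos (2.02), Btg2 (1.44), Dusp6 (1.39), Phlda1 (1.39), Fosb (1.17), Ier2 (1.17), Dusp5 (1.05), Fbxo32 (1.05), Zfp36l2 (1.05), Jun (1.04) and Spry2 (1.04). It was lower for Rn45s (-4.36), Mir6236 (-3.73), Ifnb1 (-2.44), Edn1 (-1.91), Lars2 (-1.74), Il12b (-1.71), Ednrb (-1.37), Mmp13 (-1.21), Nox1 (-1.18) and Ifna2 (-1.01). Values are log2 differences of responses. With the 70 min PD0325901 baseline the calls of Fos, Dusp5, Dusp6, Phlda1, Spry2, Jun and Ifna2 were lost, and that of Mir6236 turned.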

How the results depend on the processing

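Counts of called genes at LPS 1 h (177), without LPS (151), at 0.5 h (158) and for the difference of responses (36), and the counts within TPL-2-dependent (6) and LPS-induced genes (32), stayed within 1.5 times under no filter, a stricter filter, fewer libraries in the fit, median centring, quantile normalization and a trended robust prior, and at LPS 1 h also with library weights (169) and PD0325901 libraries averaged in pairs by number (176). With an adjusted p alone they were 6450, 5340, 5925, 642, 169 and 1608, the last 2 over sets redefined in the same way. The splits then changed: the TPL-2-dependent genes were 169 higher and 190 lower (6 and 0 in the report), the response difference was 401 higher and 241 lower (16 and 20), and 53.1% of calls at LPS 1 h, 51.0% without LPS and 50.6% at 0.5 h were higher (66.1%, 74.2% and 73.4%). With a threshold of the natural log of 2, which would be 2-fold if the deposited values were natural logs, they were 473, 416, 390, 84, 20 and 72. The LPS-induced genes were then 39 higher and 33 lower (14 and 18 in the report). With PD0325901 for 70 min as baseline, the difference of responses was called for 67 genes, and 21 of them were among the 36. The share higher was 65.7% against 44.4%. Among genes named in this text and called with either baseline, it changed sign for Dusp6 (-0.69), Mir6236 (2.73), Atp6v0c (-1.53) and Sparc (1.02). Dusp6 and Mir6236 were called with the 10 min baseline, and Mir6236 in the opposite direction with 70 min. Further genes that are not named here also changed sign, some of them called. With single libraries left out, counts ran from 158 to 203 at LPS 1 h, 126 to 181 without LPS, 141 to 170 at 0.5 h, 32 to 41 for responses, 5 to 8 for TPL-2-dependent and 30 to 37 for LPS-induced genes. Without RSKi47 replicate 4 at every time, chosen after seeing the data, the counts were 158, 126, 158, 33, 7 and 30. At LPS 1 h, 144 of the 177 calls held without RSKi47 replicate 4, and 170 to 176 without any other inhibitor library of that time, and 29 of the 36 response differences held without replicate 4. Among genes named in the text, the LPS 1 h calls of Ccl4, Csf1, Mmp13 and Slc7a11 were lost when 1 library was left out; without RSKi47 replicate 4 they were -0.95, -0.87 and 0.72 for Csf1, Mmp13 and Slc7a11, and without RSKi47 replicate 1 it was -0.94 for Ccl4. Slc7a11 also fell under the threshold with median centring, quantile normalization and library weights, and without PD0325901 replicate 4. Among the same genes, leaving out 1 library ended the call of the response difference for Dusp5, Spry2, Fbxo32 or Ifna2. The replicate block over numbers 1 to 4 called 174 genes, as did the same 8 libraries without it, and a block within each arm called 35 (34 without it), with the response differences of Nr4a1, Fbxo32 and Ifna2 not called either way. Of the pairs of PD0325901 libraries at LPS 1 h, the 3 with numbers 3 apart differed by 0.12 to 0.13 and the other 12 by 0.13 to 0.16, and whether they come from shared cultures was not tested. The depth of each library was not in the table and limits low genes.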

Other observations

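Of 12 NRF2 target genes, which protect against oxidants, 7 were higher and 1 lower at an adjusted p below 0.05, and 1 was called, with a median of 0.33 at LPS 1 h and 0.47 without LPS. Without RSKi47 replicate 4, chosen after seeing the data, 5 were higher and 1 lower, 0 were called, and the median was 0.16. The called gene was Slc7a11, a cystine transporter gene, at 1.02 ± 0.23 with LPS and 1.84 without, and at 0.72 without RSKi47 replicate 4. Gsr, glutathione reductase, differed by 0.70 and was not called. Of 12 heat shock genes 9 were lower and 2 higher at an adjusted p below 0.05, with 0 called and a median of -0.25 (-0.30 without LPS). Hspa1b, an HSP70 gene, differed by -0.67. Of 19 cell cycle genes 10 were lower and 0 higher at the same threshold, and Tyms, thymidylate synthase, differed by -0.64 with LPS and -0.76 without. Of 11 macrophage genes 4 were higher and 4 lower, 0 were called, and the median was 0.03. These shares can be read against the 28.6% of all genes that were higher and the 25.3% that were lower at that threshold.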
